A study of Homo sapiens with 6 samples.

Results

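The matrix metalloproteinases (MMPs), the ADAMTS proteases and the tissue inhibitors of metalloproteinases (TIMPs) were followed in MG63 cells, an established human osteosarcoma line, after knockdown of FUBP1. The members were the protein-coding genes of the deposited table named as an MMP, an ADAMTS or a TIMP by number, whatever their level. This gave 46 of 58735 genes: 23 MMP genes, 19 ADAMTS genes and 4 TIMP genes. The cells had been transfected 48 h earlier, either with an siRNA that targets FUBP1 (3 samples, siFUBP1) or with the negative control (3 samples, siMock). Both groups were thus transfected, but whether the control of the sequenced samples contained an siRNA is not stated. FUBP1 encodes a single-stranded nucleic acid binding protein that is known to regulate transcription, MYC above all, and to take part in splicing. The purpose of the knockdown in the study was to find genes downstream of FUBP1. The samples come from 1 cell line, and the labels do not say whether the replicates were separate cultures. The study states in general that experiments were repeated, without naming the sequencing, so the p-values measure the spread between these samples.

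MMPs are zinc-dependent endopeptidases that are secreted or held at the cell surface as inactive proenzymes. They are activated when the propeptide is cut, by furin-like convertases or by other proteases such as plasmin, and together they cleave collagens, gelatin, laminin and many surface proteins. ADAMTS proteases are secreted relatives that carry thrombospondin repeats and act on proteoglycans, procollagens, fibrillin microfibrils or von Willebrand factor. TIMPs bind the active site of these enzymes, and TIMP3 is the one that is held in the extracellular matrix and also inhibits ADAM and ADAMTS proteases. In bone and in bone tumors these enzymes are known for matrix turnover, osteoclast recruitment and invasion.

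The samples had between 16309900 and 17484313 counted reads each. Levels are given as raw counts or as CPM, which sets each count against a library size scaled by TMM, and levels of different genes were compared only as CPM per kilobase of gene length. FUBP1 itself fell to 18.4% of its siMock level, from 255.5 ± 18.5 to 46.9 ± 5.33 CPM (SD, n = 3). The cell type label was only partly borne out by its markers. Of 7 osteoblast-lineage and mesenchymal markers, COL1A2 had a count of 0 in all 6 samples, which allows up to 0.192 CPM in the shallowest sample. SPARC had 0 to 5 counts and ALPL 0 to 1, while COL1A1 and VIM were well counted. The 7 markers summed to at most 273 CPM in siMock and at most 263 CPM in siFUBP1, but these similar sums hide opposite changes. COL1A1 fell from 113 to 45.5 CPM, while VIM rose from 149 to 194 CPM and RUNX2 from 0.448 to 4.05 CPM (group means). SPP1 counts did not exceed 2 in any siMock sample and were 7 or more in every siFUBP1 sample. The 3 epithelial markers summed to at most 6.10 CPM, the 4 leukocyte markers to at most 1.35 CPM and the 3 endothelial markers to at most 5.18 CPM. The endothelial sum was lower in siFUBP1 (1.90 to 2.81 CPM) than in siMock (3.20 to 5.18 CPM), and its part in the results was not tested. The cells are called by their label, MG63, throughout.

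The siRNA that was sequenced is not named, so the guide strands of the study's 3 FUBP1 siRNAs are shown with their seeds (bases 2 to 8) in capitals, because a seed can also repress other mRNAs that carry its complement in the 3-prime UTR.
RNAi#1: uAAACUGAaugcgaacacc
RNAi#2: uAAGAGGUuugucagcacc
RNAi#3: uUUCUUCUaugaguugccg
In the 3-prime UTRs of the members (1 transcript per gene, GENCODE release 29), a 7-base match to the seed of RNAi#1 was present in 17.4%, against 17.6% of 19415 genes searched. For RNAi#2 the shares were 10.9% and 11.2%, and for RNAi#3 they were 17.4% and 18.6%. Members therefore carried seed matches about as often as other genes. A match is a description and does not show that the siRNA acts there.

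Of the 46 members, 23 passed the filter of edgeR on low counts and could be tested, and 23 did not pass it. A member passed the test at an adjusted p below 0.05 in edgeR's quasi-likelihood F test, adjusted by Benjamini-Hochberg over 16116 genes. It was called when the log2 fold change, siFUBP1 over siMock, was also above 1 or below -1. Among the 23 tested members 5 were higher in siFUBP1 and 12 were lower. Over all genes tested 30.1% were higher and 30.1% lower, so a high share of changed genes was the background of this knockdown. With the fold threshold 2 members were called higher (MMP24 and ADAMTS16), against 8.16% of all genes. A further 7 were called lower (MMP28, ADAMTS10, MMP9, TIMP3, ADAMTS14, ADAMTS15 and ADAMTS7), against 9.13% of all genes. All siFUBP1 samples lay on 1 side of all siMock samples for 17 of the tested members, against 63.9% of all genes. The median log2 fold change was -0.25 over the tested members and 0.00 over all genes tested. In RNA from whole cultures, fewer cells expressing a gene and less of its RNA per cell cannot be told apart.

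**Figure D1:**
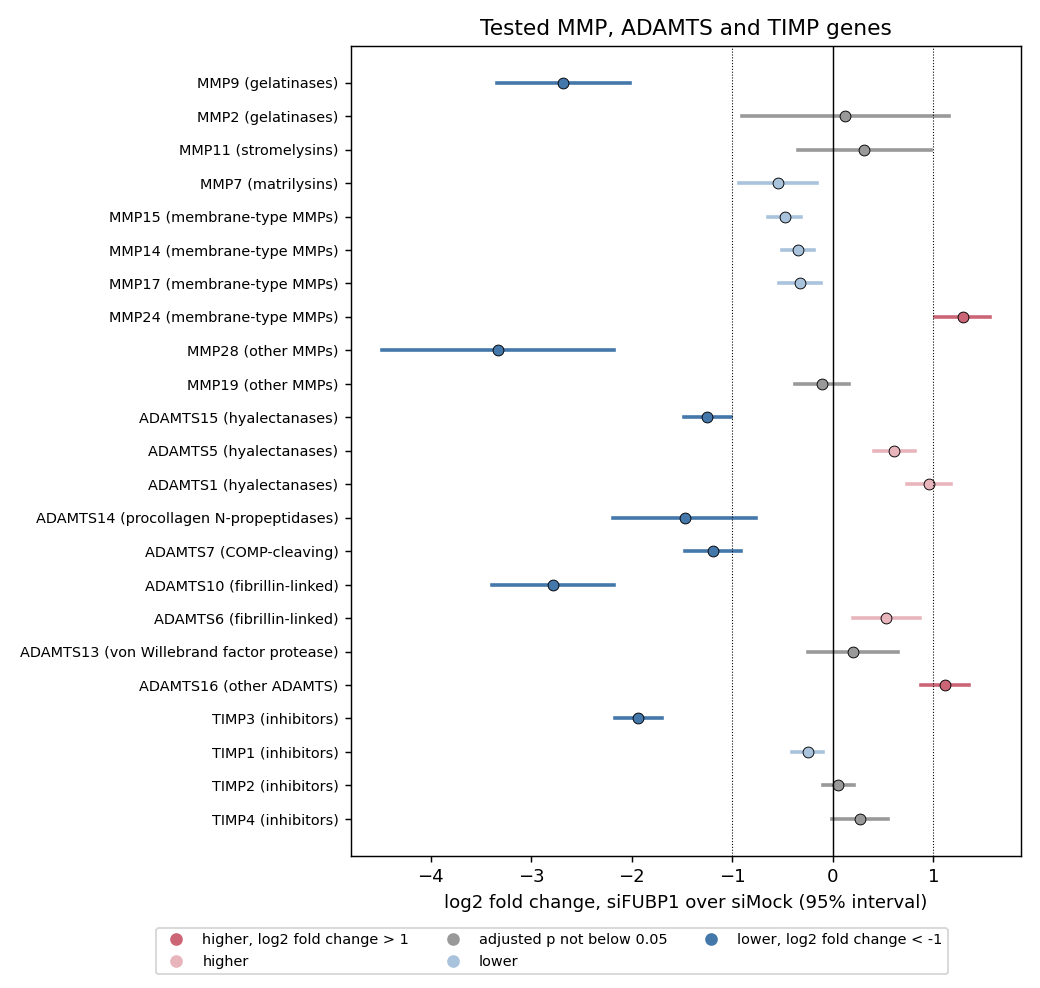
Log2 fold change of the 23 tested members, siFUBP1 over siMock, with the 95% interval of each (horizontal lines), grouped by the role of the enzyme. Dotted lines mark log2 fold changes of -1 and 1; MMP28, ADAMTS10 and MMP9 lie farthest to the left, and MMP24 and ADAMTS16 are past the line on the right.

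The family was uneven in its levels before any comparison. TIMP1 and TIMP2 stood far above the rest, with 203 ± 13.7 and 91.2 ± 3.38 CPM per kilobase (SD, n = 3) in siMock. Next came MMP15 at 35.8 ± 2.98 and MMP14 at 25.9 ± 0.560 CPM per kilobase (SD, n = 3). TIMP3 followed at 7.92 ± 0.516, then MMP17 at 6.85 ± 0.745, ADAMTS15 at 6.22 ± 1.00 and TIMP4 at 6.06 ± 0.501 CPM per kilobase (SD, n = 3). The SDs of TIMP3 and MMP17 overlap, and so do those of MMP17, ADAMTS15 and TIMP4. Within each siMock sample TIMP3 was above MMP17 and MMP17 above TIMP4. ADAMTS15 was above MMP17 in siMock replicate 2 only and below TIMP4 in siMock replicate 3 only, so its place is not settled. In siFUBP1 the first 4 places were unchanged, while TIMP3 fell to 2.07 ± 0.287 CPM per kilobase (SD, n = 3), below ADAMTS1 at 5.67 ± 0.614, MMP24 at 4.57 ± 0.482 and ADAMTS16 at 4.53 ± 0.460 CPM per kilobase (SD, n = 3).

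**Figure D2:**
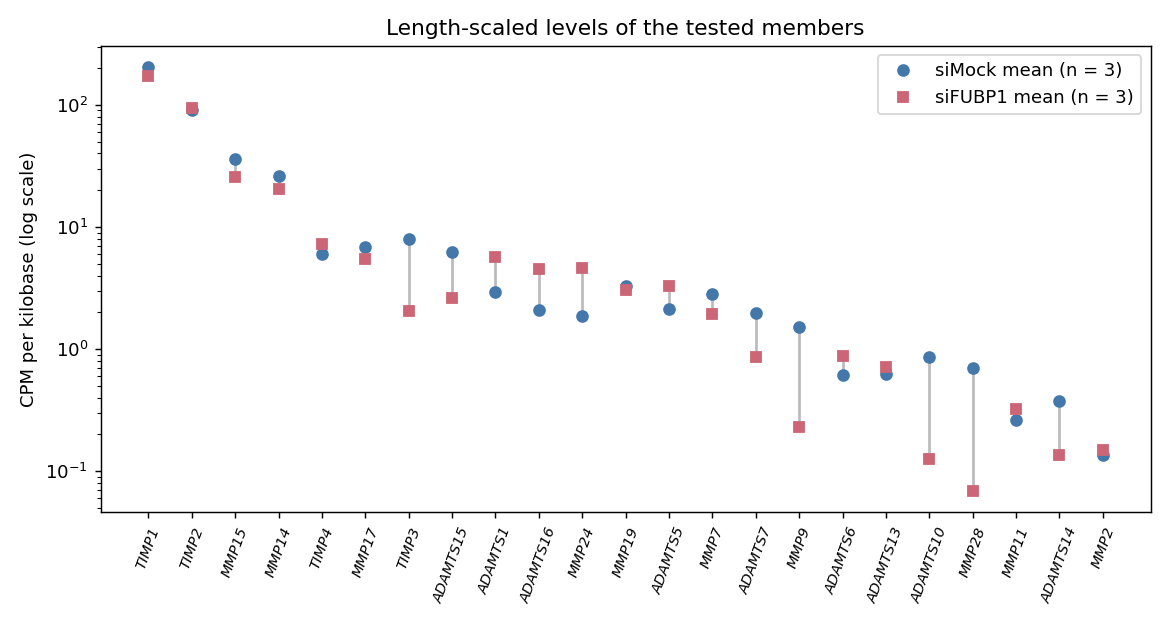
Mean level of each tested member in siMock (circles) and siFUBP1 (squares), in CPM per kilobase on a log axis, ordered by the sum of both means. TIMP1, TIMP2, MMP15 and MMP14 lead in both groups, and the longest gray lines are those of MMP28, ADAMTS10 and MMP9, members of low level.

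Among the secreted gelatinases, which digest denatured collagen and basement membrane collagen, MMP9 fell and MMP2 did not pass the test. MMP9 (ENSG00000100985, chromosome 20 of GRCh38, 46008908 to 46016561, plus strand) had 67, 57 and 48 counts in siMock and 11, 9 and 8 in siFUBP1. Every siFUBP1 sample was far below every siMock sample. In normalized values MMP9 fell from 3.51 ± 0.533 to 0.543 ± 0.0987 CPM (SD, n = 3), to 15.5% of siMock, with a log2 fold change of -2.68 (SE 0.32, adjusted p = 6.06e-08 from edgeR). The exons of MMP9 share 430 bases with SLC12A5-AS1, an antisense gene that was also called lower (log2 fold change -1.52). The use of strand in the counting is not stated, so reads of the shared bases cannot be assigned to either gene. MMP2, the gelatinase that MMP14 activates, was barely counted, with 71 reads over the 6 samples, and its log2 fold change was 0.13 with an interval from -0.91 to 1.159 (adjusted p = 0.843 from edgeR). This interval does not reach a fall as large as that of MMP9, and a smaller change of MMP2 in either direction was not detectable at this depth.

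The membrane-type MMPs, which are anchored at the cell surface and include the main pericellular collagenase MMP14, held most of the MMP signal. All 4 of those tested passed the test, as did 60.2% of all genes tested. Of the 4, 3 were lower by small amounts and MMP24 was higher. MMP15 (ENSG00000102996, chromosome 16, 58025566 to 58046901) had 144 to 170 CPM in siMock and 108 to 121 CPM in siFUBP1, a log2 fold change of -0.48 (SE 0.080, adjusted p = 1.26e-05 from edgeR). MMP14 (ENSG00000157227, chromosome 14, 22836557 to 22849027) had 114 to 119 CPM in siMock and 85.6 to 95.0 CPM in siFUBP1, a log2 fold change of -0.34 (SE 0.076, adjusted p = 3.94e-04 from edgeR). The groups did not overlap for either gene, and MMP15 kept 71.9% of its siMock level and MMP14 78.9%. After a correction for GC content and gene length both still passed the test, but the log2 fold change of MMP15 was -0.20 (adjusted p = 0.00681) and that of MMP14 -0.24 (adjusted p = 0.00441) by edgeR. MMP17, which is held by a glycosylphosphatidylinositol anchor, kept 79.9%, and its log2 fold change was -0.32 by edgeR (adjusted p = 0.00836). The MMP17 value depended on the processing. It was 0.02 (adjusted p = 0.878 from edgeR) after the same correction, -0.23 (adjusted p = 0.0619 from edgeR) with total count scaling and -0.25 (adjusted p = 0.0593 from edgeR) without siMock replicate 1.

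MMP24, a membrane-type MMP best known from neurons, where it cleaves N-cadherin, went the other way. MMP24 (ENSG00000125966, chromosome 20, 35226654 to 35277000, plus strand) had 116, 143 and 143 counts in siMock and 368, 308 and 366 in siFUBP1. The lowest siFUBP1 sample was above the highest siMock sample. MMP24 rose from 8.23 ± 1.04 to 20.2 ± 2.13 CPM (SD, n = 3), a 2.45-fold difference with a log2 fold change of 1.29 (SE 0.13, adjusted p = 4.17e-09 from edgeR). MMP24OS, transcribed from the opposite strand, spans MMP24 and shares 799 exonic bases with it. MMP24OS rose less, from 17.8 ± 2.73 to 26.7 ± 1.65 CPM (SD, n = 3), with a log2 fold change of 0.58, and a further 162 bases are shared with AL121753.2. How the shared reads were divided is not known. The remaining members of the group were MMP16, with no read, and MMP25, whose counts of 8 to 15 in siMock and 2 to 7 in siFUBP1 did not pass the filter. Without the filter its log2 fold change was -1.49 (SE 0.64, adjusted p = 0.0572 from edgeR), and with DESeq2 it was -1.52 (adjusted p = 0.135). MMP25 shares 1454 exonic bases with MMP25-AS1 on the opposite strand.

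The 300 bases around the starts of MMP24 and TIMP3 are shown because MMP24 had the largest rise among the tested members and TIMP3, which fell, the smallest adjusted p. The sequences are from RefSeq (GRCh38.p14), 250 bases before the start and 50 after, in the direction of the gene. Capitals mark GC boxes (GGGCGG, or CCGCCC for the other strand).
MMP24 (chr20:35226440-35226739, plus strand): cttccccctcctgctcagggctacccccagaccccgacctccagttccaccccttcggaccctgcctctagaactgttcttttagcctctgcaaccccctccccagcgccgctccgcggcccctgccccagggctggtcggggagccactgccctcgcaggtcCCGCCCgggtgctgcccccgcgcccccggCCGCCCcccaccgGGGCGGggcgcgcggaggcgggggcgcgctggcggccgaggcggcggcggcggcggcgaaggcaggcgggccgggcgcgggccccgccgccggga
TIMP3 (chr22:32801455-32801754, plus strand): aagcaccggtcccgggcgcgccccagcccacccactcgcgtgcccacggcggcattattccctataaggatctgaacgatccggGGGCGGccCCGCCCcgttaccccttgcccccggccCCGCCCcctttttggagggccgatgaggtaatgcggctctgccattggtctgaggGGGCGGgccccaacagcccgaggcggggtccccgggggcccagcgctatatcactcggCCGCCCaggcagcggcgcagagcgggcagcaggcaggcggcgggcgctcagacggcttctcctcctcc
Both windows are rich in G and C, with a GC content of 80.0% for MMP24 and 72.7% for TIMP3, and hold 3 and 5 GC boxes. The table held a promoter for 27 members, in 28 windows. No window was available for MMP1, MMP2, MMP3, MMP9, MMP12, MMP13, MMP16, MMP17, MMP19, MMP25 and MMP28. The same holds for ADAMTS1, ADAMTS4, ADAMTS5, ADAMTS8, ADAMTS9, ADAMTS15, ADAMTS16 and TIMP2, so these members were not searched for any motif. A GC box was present in 19 of the 28 member windows and in 45.0% of all 35116 windows, and the median GC content was 66.0% for member windows and 58.7% for all.

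The collagenases MMP1, MMP8 and MMP13, which cut intact fibrillar collagen, were at or near 0, as were the stromelysins MMP3 and MMP10. These genes lie with MMP7, MMP12, MMP20 and MMP27 in a cluster of 9 MMP genes on chromosome 11 (102520508 to 102955734), 435 kb long. MMP7 alone was counted well enough to be tested, with 554 reads over the 6 samples. MMP8, MMP10, MMP20 and MMP27 had no read in any sample. The other 4 genes had 10 reads between them over the 6 samples: 4 for MMP1, 3 for MMP12, 2 for MMP13 and 1 for MMP3. MMP7, matrilysin, a small secreted protease without the hemopexin domain, had 6.31, 7.36 and 6.02 CPM in siMock and 5.27, 3.34 and 4.87 CPM in siFUBP1. The groups did not overlap, but siFUBP1 replicate 2 was lower than the other two. The log2 fold change of MMP7 was -0.55 (SE 0.19, adjusted p = 0.0143 from edgeR), and it did not hold without siFUBP1 replicate 2 (-0.37, adjusted p = 0.111), without siMock replicate 2 (-0.46, adjusted p = 0.0775) or with DESeq2 (adjusted p = 0.0629). With the correction for GC content and gene length it was -0.89 (adjusted p = 1.80e-04).

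MMP7 and MMP10 are shown side by side because the motifs searched were found at similar places in both. The AP-1-like sites differ at 1 base, and 1 gene was read and the other was not. Capitals mark an AP-1-like site (TGANTCA, where N is any base) and a TATA box (TATAAA). Both strands were searched.
MMP7 (chr11:102530698-102530997, minus strand): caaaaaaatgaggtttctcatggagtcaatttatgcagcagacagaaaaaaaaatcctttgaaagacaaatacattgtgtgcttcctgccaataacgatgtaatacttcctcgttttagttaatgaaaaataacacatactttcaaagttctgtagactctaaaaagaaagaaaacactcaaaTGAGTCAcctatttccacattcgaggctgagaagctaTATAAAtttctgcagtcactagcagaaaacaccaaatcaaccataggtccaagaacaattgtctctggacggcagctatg
MMP10 (chr11:102780579-102780878, minus strand): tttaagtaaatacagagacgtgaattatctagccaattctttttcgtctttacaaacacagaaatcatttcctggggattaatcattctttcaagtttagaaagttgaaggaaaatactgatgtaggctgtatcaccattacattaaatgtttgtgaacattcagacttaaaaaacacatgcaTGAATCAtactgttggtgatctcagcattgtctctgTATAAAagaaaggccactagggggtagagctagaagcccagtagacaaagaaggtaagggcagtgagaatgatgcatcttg
The AP-1-like site begins at -67 from the start in both genes, and the TATA box at -30 in MMP7 and -31 in MMP10. The AP-1-like site is TGAGTCA in MMP7 and TGAATCA in MMP10. Their GC content was 35.7% and 36.3%. An AP-1-like site was found in 4 of the 28 member windows (MMP7, MMP10, MMP20 and ADAMTS12) and in 7.71% of all windows. MMP1, MMP3, MMP9 and MMP13 were among the members without a window, so whether they hold such a site was not examined. A TATA box was found in 7 of 28 and in 11.5% of all windows. Of these 4 genes with an AP-1-like site MMP7 alone was tested. MMP7 alone had TGAGTCA, and the others had TGAATCA.

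Among the remaining MMPs, MMP28 fell, while MMP19 and the stromelysin MMP11 did not pass the test. MMP28 (ENSG00000271447, chromosome 17, 35756249 to 35795707, minus strand), epilysin, a furin-activated protease first described in skin and testis, had 41, 38 and 20 counts in siMock and 8, 0 and 2 in siFUBP1. The groups did not overlap, but the siFUBP1 counts were close to 0 and 1 sample had none. The level fell from 2.01 ± 0.646 to 0.196 ± 0.247 CPM (SD, n = 3), with a log2 fold change of -3.33 (SE 0.56, interval -4.49 to -2.17, adjusted p = 1.39e-05 from edgeR). Without siFUBP1 replicate 1, which holds 8 of the 10 siFUBP1 reads, the log2 fold change was -4.95, so the size of this fall is poorly known. MMP28 lies inside TAF15 on the opposite strand with no shared exonic base, and TAF15 did not pass the test (log2 fold change -0.10). MMP19, a broadly expressed secreted MMP, was at 15.3 ± 1.14 CPM in siMock and 14.2 ± 2.68 CPM in siFUBP1 (SD, n = 3), with an interval of the log2 fold change from -0.38 to 0.17. MMP11, which is activated inside the cell by furin, had a log2 fold change of 0.32 with an interval from -0.35 to 0.98. MMP19 shares 814 exonic bases with TMEM198B and MMP11 218 with CHCHD10, both on the opposite strand. MMP21 had 5 reads over the 6 samples, MMP23B counts were 2 to 12 in siMock and 0 to 7 in siFUBP1, and MMP26 had none.

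**Figure D3:**
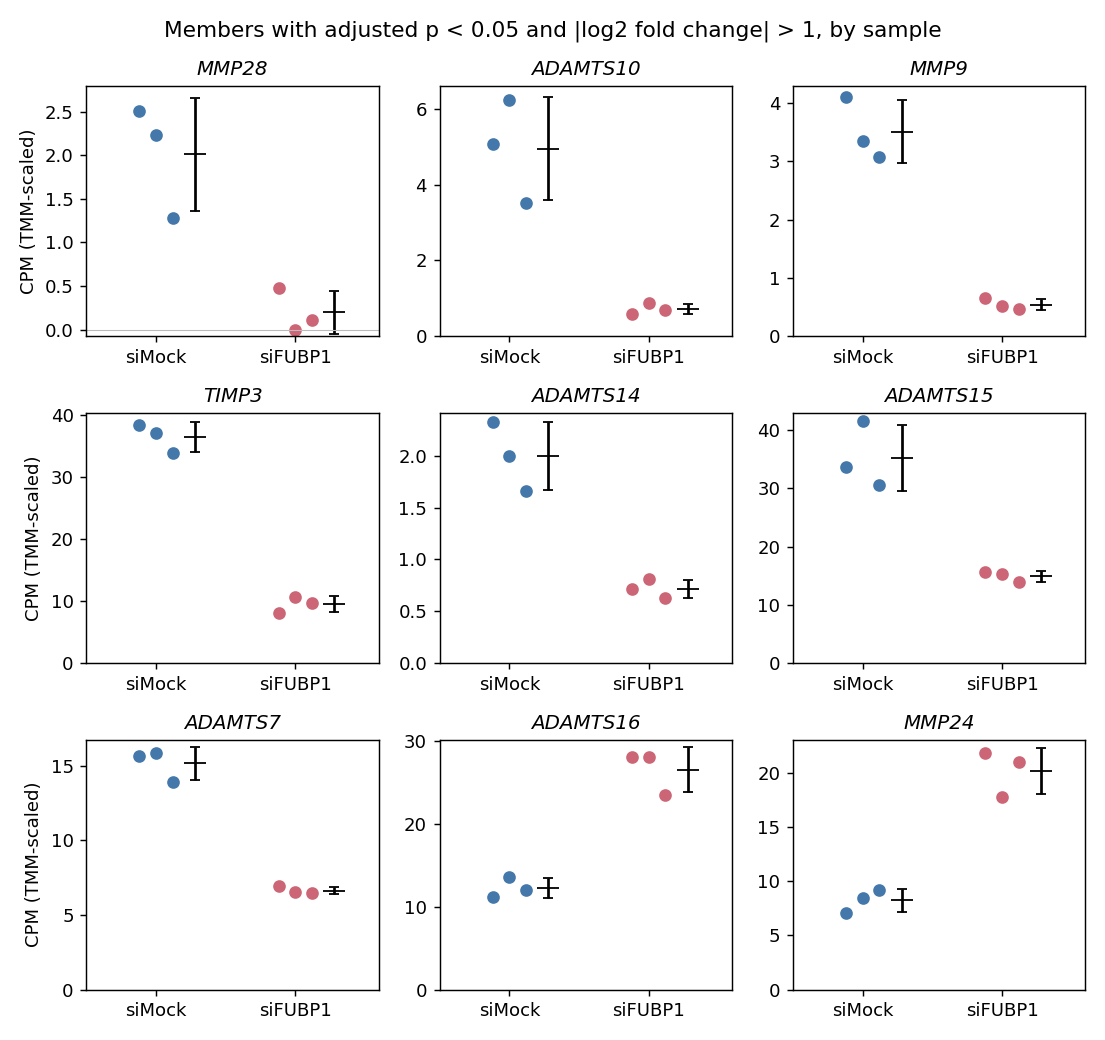
CPM of the 9 called members in each sample (points), with the mean and SD of each group (black bars, n = 3), ordered by log2 fold change. The linear axes start at 0 except for MMP28, whose SD bar in siFUBP1 passes below 0; in every panel the siMock and siFUBP1 points are apart.

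The ADAMTS genes were divided. Of 9 tested, 4 were higher, 4 were lower (over all genes tested, 30.1% in each direction) and ADAMTS13 did not pass the test. Within the hyalectanases, which cleave aggrecan and versican, ADAMTS1 and ADAMTS5 rose while ADAMTS15 fell. ADAMTS15 (ENSG00000166106, chromosome 11, 130448974 to 130476641, plus strand) had 551, 707 and 477 counts in siMock and 263, 264 and 242 in siFUBP1. The siFUBP1 samples lay close together and below every siMock sample, of which replicate 2 was the highest. ADAMTS15 kept 42.2% of its siMock level, with a log2 fold change of -1.25 (SE 0.11, adjusted p = 5.46e-10 from edgeR).

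ADAMTS1 (ENSG00000154734, chromosome 21, 26835747 to 26845409) and ADAMTS5 (ENSG00000154736, chromosome 21, 26917912 to 26966513) are neighbors on the minus strand. ADAMTS1, which also restrains angiogenesis, had 21.3, 22.9 and 17.6 CPM in siMock and 37.7, 37.4 and 45.1 CPM in siFUBP1. All siFUBP1 samples were above all siMock samples, and the level was 1.94-fold higher (log2 fold change 0.96, SE 0.11, adjusted p = 2.27e-08 from edgeR). The fold change was just short of the threshold, so ADAMTS1 was not called. ADAMTS5, the main aggrecanase of cartilage in mice, had 20.1, 20.4 and 17.7 CPM in siMock and 28.4, 30.6 and 30.1 CPM in siFUBP1, without overlap (log2 fold change 0.61, SE 0.10, adjusted p = 8.36e-06 from edgeR). The other hyalectanases were scarcely read: ADAMTS4 counts were 6 to 12 in siMock and 2 to 7 in siFUBP1, ADAMTS8 and ADAMTS20 had at most 2 in any sample and ADAMTS9 had none. ADAMTS1 has 1 seed match of RNAi#1 and ADAMTS5 has 1 of RNAi#3.

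ADAMTS6 and ADAMTS10 are close relatives that act on fibrillin microfibrils, and they moved in opposite directions. ADAMTS10 (ENSG00000142303, chromosome 19, 8580242 to 8610735, minus strand), mutated in a form of Weill-Marchesani syndrome, had 83, 106 and 55 counts in siMock and 10, 15 and 12 in siFUBP1. The siMock samples ranged widely, from 3.52 to 6.24 CPM, yet the lowest of them was far above the highest siFUBP1 sample. ADAMTS10 fell from 4.95 ± 1.36 to 0.715 ± 0.138 CPM (SD, n = 3), to 14.4% of siMock (log2 fold change -2.78, SE 0.29, adjusted p = 7.70e-09 from edgeR). ADAMTS6 had 4.84, 5.36 and 5.44 CPM in siMock and 7.88, 7.44 and 7.33 CPM in siFUBP1, without overlap, and rose 1.45-fold (log2 fold change 0.53, SE 0.16, adjusted p = 0.00626 from edgeR). Per length, ADAMTS10 was at 0.868 ± 0.239 and ADAMTS6 at 0.609 ± 0.0380 CPM per kilobase in siMock (SD, n = 3), with overlapping SDs and the reverse order in replicate 3. In siFUBP1 ADAMTS6 was the higher in every sample, at 0.881 ± 0.0336 against 0.125 ± 0.0243 CPM per kilobase (SD, n = 3).

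ADAMTS7 (ENSG00000136378, chromosome 15, 78759203 to 78811431, minus strand), which cleaves cartilage oligomeric matrix protein, had 256, 270 and 217 counts in siMock and 117, 113 and 113 in siFUBP1. The 3 siFUBP1 samples were nearly equal and below all siMock samples. ADAMTS7 kept 43.8% of its siMock level (log2 fold change -1.19, SE 0.14, adjusted p = 2.63e-08 from edgeR). With the correction for GC content and gene length the fall remained past the p threshold but was smaller than the fold threshold. ADAMTS12, its closest relative, had at most 1 count in any sample.

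ADAMTS14 (ENSG00000138316, chromosome 10, 70672803 to 70762441, plus strand), 1 of the 3 procollagen N-propeptidases, which trim the amino end of fibrillar procollagens, had 38, 34 and 26 counts in siMock and 12, 14 and 11 in siFUBP1. The groups did not overlap, at low counts. Its log2 fold change was -1.47 (SE 0.35, adjusted p = 6.25e-04 from edgeR), a fall to 35.8% of siMock. ADAMTS2 and ADAMTS3, the other procollagen N-propeptidases, had no read in any sample. COL1A1, which encodes a fibrillar procollagen chain, fell as well, from 113 ± 4.68 to 45.5 ± 0.150 CPM (SD, n = 3).

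ADAMTS16 (ENSG00000145536, chromosome 5, 5140330 to 5320304, plus strand), a protease known to cleave fibronectin, had 182, 230 and 187 counts in siMock and 475, 487 and 409 in siFUBP1. Every siFUBP1 sample was above every siMock sample. ADAMTS16 rose from 12.2 ± 1.21 to 26.5 ± 2.70 CPM (SD, n = 3), a 2.17-fold difference (log2 fold change 1.12, SE 0.12, adjusted p = 5.81e-09 from edgeR). Its 3-prime UTR holds 1 match to the seed of RNAi#3. ADAMTS17, ADAMTS18 and ADAMTS19, grouped with it, had at most 3, at most 6 and no reads per sample. ADAMTS13, which cleaves von Willebrand factor, was at 3.57 ± 0.433 CPM in siMock and 4.11 ± 0.932 CPM in siFUBP1 (SD, n = 3), with overlapping samples and an interval of the log2 fold change from -0.25 to 0.65.

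Among the inhibitors, TIMP3 fell strongly, TIMP1 fell slightly, and neither TIMP2 nor TIMP4 passed the test. TIMP3 (ENSG00000100234, chromosome 22, 32801701 to 32863043, plus strand) had 627, 631 and 528 counts in siMock and 137, 186 and 170 in siFUBP1. The highest siFUBP1 sample was far below the lowest siMock sample. TIMP3 fell from 36.5 ± 2.38 to 9.52 ± 1.32 CPM (SD, n = 3), to 26.1% of siMock (log2 fold change -1.94, SE 0.11, adjusted p = 1.29e-13 from edgeR), and it stayed between -2.05 and -1.53 in every alternative analysis. TIMP3 has 1 match to the seed of RNAi#2 and 2 to that of RNAi#3 in its 3-prime UTR of 3666 bases, and the first of each is shown with the match in capitals because TIMP3 was the called inhibitor.
TIMP3, match to RNAi#2: agatcctcACCTCTTggaattaa
TIMP3, match to RNAi#3: attgaaacAGAAGAAgaaaaaaa
Among the 9 called members the others with a match were MMP24 (1, RNAi#2) and ADAMTS16 (1, RNAi#3), which both rose. Of the members that passed the test without a call, ADAMTS1, ADAMTS5 and ADAMTS6, which were higher, and MMP14, which was lower, have 1 match each. Whether an siRNA seed had a part in the fall of TIMP3 was not tested.

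TIMP1 (ENSG00000102265, chromosome X, 47582313 to 47586789, plus strand) had 338, 299 and 304 CPM in siMock and 270, 265 and 256 CPM in siFUBP1. The groups did not overlap, and the log2 fold change was -0.25 (SE 0.077, adjusted p = 0.00672 from edgeR), but with total count scaling it was -0.15 (adjusted p = 0.0833 from edgeR). TIMP2 (ENSG00000035862, chromosome 17, 78852977 to 78925387, minus strand), which also takes part in the activation of MMP2 by MMP14, was at 514 ± 19.1 CPM in siMock and 534 ± 9.08 CPM in siFUBP1 (SD, n = 3). The samples overlapped, and the interval of the log2 fold change, -0.10 to 0.21, leaves room only for a small difference. TIMP4 (ENSG00000157150, chromosome 3, 12153051 to 12159351, minus strand), the inhibitor of most restricted tissue distribution, had 9.44, 10.95 and 9.61 CPM in siMock and 12.9, 12.5 and 10.7 CPM in siFUBP1, and the lowest siFUBP1 sample was within the siMock range. Its log2 fold change of 0.27 missed the threshold (interval -0.01 to 0.55, adjusted p = 0.0908 from edgeR), and it passed with total count scaling (adjusted p = 0.0241) and without siFUBP1 replicate 3 (adjusted p = 0.0492). TIMP2 shares 198 exonic bases with CEP295NL on the same strand and 367 with AC022966.1 on the other, and TIMP4 shares 170 with SYN2.

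Summed per length, the transcripts of the 23 MMP genes came to 74.9 to 83.5 CPM per kilobase in siMock and 61.7 to 63.1 in siFUBP1. MMP14 and MMP15 made up 77.6% ± 0.486 of this sum in siMock and 74.2% ± 0.683 in siFUBP1 (SD, n = 3). The 4 TIMP genes came to 299 to 328 CPM per kilobase in siMock and 270 to 277 in siFUBP1, of which TIMP1 and TIMP2 held 95.5% ± 0.335 and 96.6% ± 0.200 (SD, n = 3). TIMP3 made up 2.57% ± 0.123 of the TIMP sum in siMock and 0.753% ± 0.106 in siFUBP1 (SD, n = 3). The ratio of the TIMP sum to the MMP sum was 3.88 ± 0.141 in siMock and 4.42 ± 0.0484 in siFUBP1 (SD, n = 3). This ratio was taken without the correction for GC content and gene length. With that correction the log2 fold change was -0.20 for MMP15 and -0.24 for MMP14, smaller falls than without it. TIMP1 was then at -0.29, a slightly larger fall, and TIMP2 at 0.04, so the difference in the ratio depends on the processing. The ADAMTS sum, whose members rose and fell, was 17.9 ± 2.06 and 18.9 ± 0.182 CPM per kilobase (SD, n = 3). These sums are descriptions of transcript levels and were not tested, and they say nothing of proteins or of enzyme activity.

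The enzymes act within a wider system, and 77 other genes of pericellular proteolysis were listed by function: activators, other inhibitors, ADAMTS-like proteins, ADAMs, other matrix proteases, substrates and transcription factors. Of these, 60 were tested and 46 passed the test (76.7%, against 60.2% of all genes), 25 higher and 21 lower. With the fold threshold 10 were called higher and 10 lower, or 33.3% together, against 17.3% of all genes. Their median log2 fold change was 0.03, beside 0.00 over all genes.

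In the plasminogen system, whose end product plasmin activates several proMMPs, 4 of 9 tested genes were higher and none was lower. The share that passed, 44.4%, was below that of all genes, 60.2%. PLAU, the urokinase that makes plasmin, had 6.99, 10.4 and 8.45 CPM in siMock and 25.5, 32.9 and 23.1 CPM in siFUBP1. Every siFUBP1 sample was above every siMock sample, and the log2 fold change was 1.66 (SE 0.15, adjusted p = 1.23e-09 from edgeR). SERPINE2, an inhibitor of plasmin and urokinase, was at 1.85, while the urokinase receptor PLAUR had an interval from -0.17 to 0.17.

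The proprotein convertases that remove the propeptides of MMP14, MMP11, MMP28 and ADAMTS proenzymes were lower in all 3 tested genes. Of all genes tested, 30.1% were lower. FURIN was at 194, 207 and 168 CPM in siMock and 102, 109 and 85.8 CPM in siFUBP1, a fall to 52.2% (log2 fold change -0.94, SE 0.091, adjusted p = 2.90e-09 from edgeR). PCSK6 had a log2 fold change of -1.06 and PCSK7 one of -0.51. The call of PCSK6 was close to the fold threshold. It was lost without siFUBP1 replicate 2 (-0.97), with total count scaling (-0.96) and after correcting for GC content and gene length (-0.90). The smallest fall of PCSK6 was -0.85, with limma on log2(FPKM + 1), where the call was lost as well.

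Among the other inhibitors and surface regulators 5 of 9 tested genes were higher and 3 lower, beside 30.1% of all genes in each direction. BSG, basigin, a surface glycoprotein known to induce MMPs in neighboring fibroblasts, had 1179, 992 and 941 CPM in siMock and 188, 175 and 200 CPM in siFUBP1. No siFUBP1 sample came near a siMock sample, and the log2 fold change was -2.47 (SE 0.093, adjusted p = 2.75e-17 from edgeR). CST3, the cysteine protease inhibitor cystatin C, was at -2.65. THBS1, which binds MMP2 and MMP9 and clears MMP2, was at 1.99, and TFPI2, a serine protease inhibitor of the matrix, at 1.84. CD44, which docks MMP9 and MMP14 at the surface, was 1.84-fold higher, and RECK, a membrane-anchored MMP inhibitor, 1.40-fold higher.

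The ADAMTS-like proteins share the ancillary domains of ADAMTS enzymes without the protease. ADAMTSL4, which binds fibrillin microfibrils, was at -2.17 and PAPLN at -2.43. ADAMTSL5 was at -0.99, and THSD4, also known as ADAMTSL6, was the 1 that rose, at 0.40. Of the ADAM sheddases, 3 of 8 tested were higher (ADAM17 at 0.63, ADAM9 at 0.46 and ADAM15 at 0.38) and 3 lower, with ADAM33 at -2.17. Of 10 other matrix proteases tested 3 were higher and 6 lower. Beside these counts and those of the ADAMs, 30.1% of all genes were higher and 30.1% lower. The cathepsins were divided, with CTSS at -2.92 and CTSK at -1.39, but CTSB at 0.60 and CTSL at 0.36. CTSB rose from 151 to 228 CPM and CTSL from 163 to 210 CPM (group means). The serine protease HTRA1 was at -1.83, BMP1, the procollagen C-proteinase, at -0.77 and TLL1 at 0.29. CTSK had at most 2.45 CPM in any sample. Among 8 substrates of ADAMTS enzymes 3 were tested. BCAN, brevican, was called higher at 1.31, FBN1 and FBN2 did not pass, and ACAN and VCAN, the aggrecan and versican genes, had no read in any sample.

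Of 13 transcription factors known at MMP promoters 8 were higher and 3 lower, beside 30.1% of all genes in each direction. FOSL1, a component of AP-1, had 22.3, 22.8 and 14.8 CPM in siMock and 122.9, 160 and 110 CPM in siFUBP1. It was 6.54-fold higher (log2 fold change 2.71, SE 0.21, adjusted p = 1.62e-05 from edgeR). The other AP-1 genes were divided, with JUN at 1.01, JUNB at -1.16, JUND at -0.79 and FOS at -0.63. JUN lay at the fold threshold and was below it in 6 of 15 alternatives, the lowest being 0.84 without siFUBP1 replicate 2. Without siMock replicate 2 it was 0.99 and without siMock replicate 3 it was 0.97. ETS1 was at 1.33, and RUNX2, the osteoblast regulator that acts at MMP13, was at 3.15 from a level of only 0.384 to 0.490 CPM in siMock. MMP13 had 2 reads in all, both in siFUBP1 replicate 3.

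**Figure D4:**
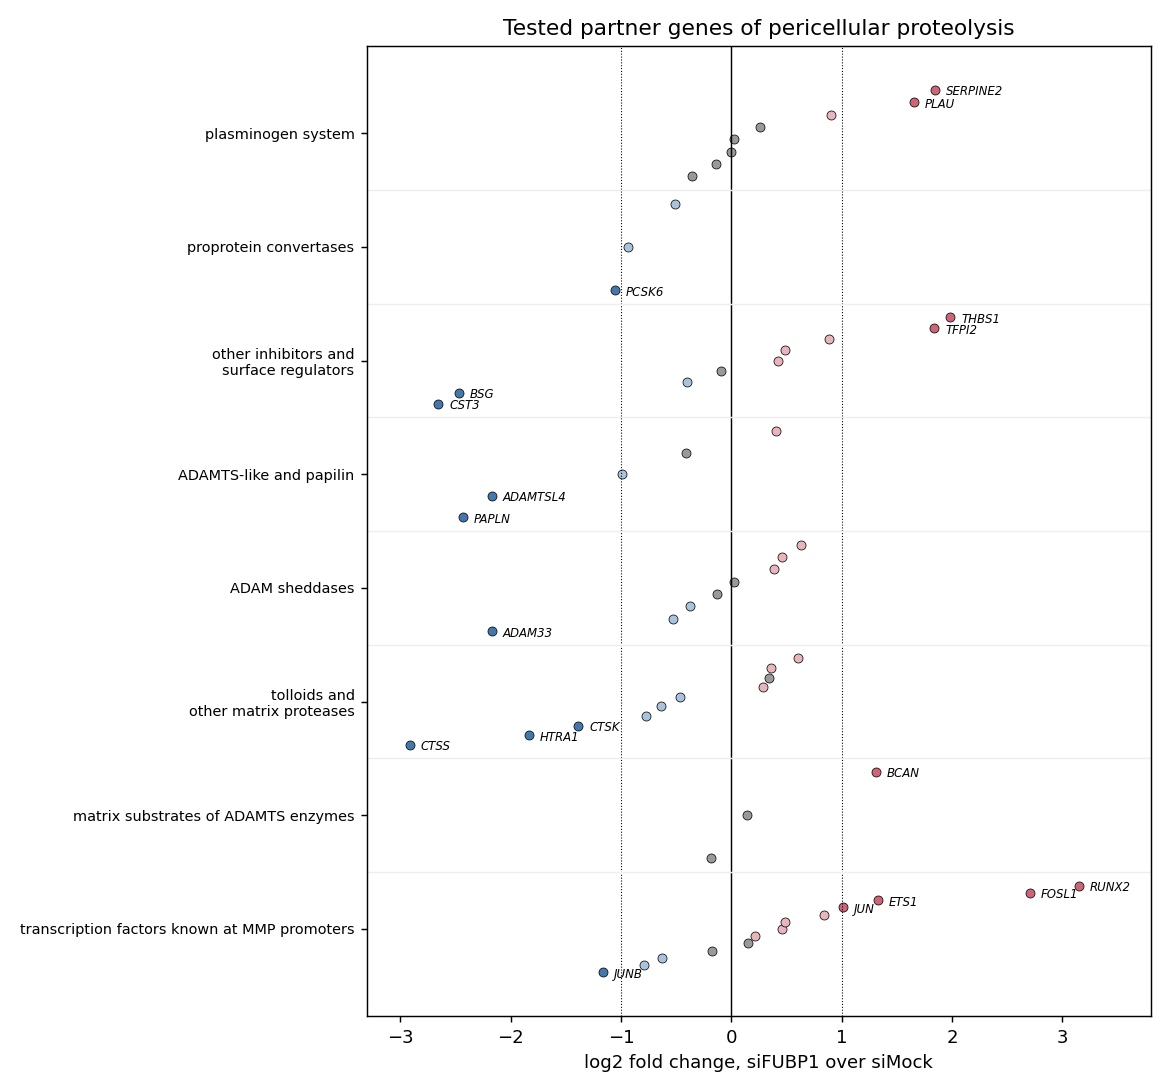
Log2 fold change, siFUBP1 over siMock, of the tested genes of pericellular proteolysis other than the members, 1 point per gene, by functional list, with 1 gene that is not reported here left out. Dark points are called and named, pale points passed the p threshold and gray points did not; dotted lines mark -1 and 1, and points are spread vertically within a list for legibility.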

How the data were processed

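RNA-seq libraries of 6 samples (poly-A selected, NEBNext Ultra kit) were grouped by their titles. Per the labels, the authors used HISAT2 2.0.5, StringTie 1.3.3b, featureCounts 1.5.0-p3 and DESeq2 1.16.1. The genome build and the use of strand are not given in the sources used here. The authors deposited raw read counts per gene and FPKM values (counts scaled by the authors for gene length and library size). The columns of the authors' own comparison (group means, log2 fold changes, p-values) were not used. Each of the 58735 genes has the identifier, start and end it has in GENCODE release 29 (GRCh38).

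The counts were tested in R 4.3.3 by edgeR 4.0.16 (TMM, expression filter with the group, robust quasi-likelihood F test, Benjamini-Hochberg over 16116 genes); intervals are at 95% and include the spread between samples. Total counts were 16309900 to 17484313 per sample, and the limit given for a count of 0 covers counting error only. Every pair of samples differed by more than sampling noise (chi-square per gene at least 5.37). Alternatives were DESeq2 1.42.0, RLE factors, total count scaling, other filters, limma 3.58.1 on log2(FPKM + 1) and log2(FPKM + 0.1), a block for the replicate number and fits without each sample in turn. A correction for GC content and gene length used transcript sequences, not the genome, and was chosen after seeing the data. The scripts were tested on simulated data. The members, lists and naming rule were chosen with earlier results of these data known. Each member that passed the test, the 5 of highest level and all TIMPs are described, called members of at least 100 counts with every sample, and partner genes are named where called. Others were chosen after their values were seen. The values of 1 partner gene are not reported here, though it is in the counts.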

Additional observations from a re-analysis of the deposited data

How the results depend on the processing

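Of the 17 members that passed the test, 15 to 17 did so under each alternative except the stricter filter (a mean of at least 50 counts), which left ADAMTS10, ADAMTS14, MMP28 and MMP9 untested. There 3 members were called lower, in place of 7. With limma on log2(FPKM + 1), a scale that shrinks changes of low genes, 0 members were called higher and 2 lower, although 17 of 17 kept an adjusted p below 0.05, and 6 partner genes were called higher in place of 10. Over all genes 464 were called higher and 589 lower on that scale, and 731 and 931 with the stricter filter, in place of 1315 and 1472. Corrected for GC content and gene length, MMP17 was at 0.0177 and ADAMTS7 was no longer called. ADAMTS1 was called higher with total count scaling and in 3 of the 6 fits that left out a sample (siMock replicate 2, siFUBP1 replicate 1, siFUBP1 replicate 2), and MMP25, which the filter leaves out with all samples, was called lower without siMock replicate 3 or siFUBP1 replicate 2 (-1.67 and -2.14) but did not pass without siFUBP1 replicate 1, with DESeq2 or without the filter. MMP2 and MMP19, which did not pass the test, changed sign when samples were left out. MMP2 ranged from -0.35 to 0.73 and MMP19 from -0.26 to 0.00103. The log2 fold change of FUBP1 stayed between -2.59 and -2.31. With the replicate number as a block all 17 and all 9 calls remained (5 members higher and 12 lower). Same-numbered samples deviated together little (correlations -0.01, 0.02 and 0.16), which cannot decide whether the numbers pair the samples. Over all genes 5013 were higher and 5001 lower with the block, in place of 4844 and 4851. The causes of these shifts were not tested. At 16309900 to 17484313 reads per sample, 23 members did not pass the filter.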

Other observations

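TIMP1, TIMP3 and TIMP4 lie inside the synapsin genes SYN1, SYN3 and SYN2, each on the opposite strand. The synapsin genes were too little counted to be tested. SYN3, which spans TIMP3, had 3, 8 and 6 counts in siMock and 7, 2 and 3 in siFUBP1, beside 528 to 631 and 137 to 186 for TIMP3. SYN1, the host of TIMP1, had 0 to 4 counts in any sample, and SYN2, the host of TIMP4, had 5 to 10.

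Around the MMP cluster of chromosome 11, 11 other protein-coding genes lie within 1 Mb, and 7 of them were tested. YAP1, the transcriptional coactivator of the Hippo pathway, was at 255 ± 7.50 CPM in siMock and 282 ± 23.8 CPM in siFUBP1 (SD, n = 3). TMEM123, the nearest tested gene before MMP7, had a log2 fold change of 0.64 by edgeR, and DCUN1D5, the nearest after MMP13, one of -0.06. Of the neighbors not tested, TRPC6 and CFAP300 had no read, PDGFD had 4 and ANGPTL5 had 37 over the 6 samples. The flanks thus held both well counted genes and genes with few or no reads, while 8 of the 9 cluster members had at most 4 reads over the 6 samples.

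A pair of close neighbors on chromosome 11, ADAMTS8 and ADAMTS15, differed widely in level. In siMock they were at a mean of 0.00944 and 6.22 CPM per kilobase, and in siFUBP1 at 0.0128 and 2.62. ADAMTS8 had 5 reads over the 6 samples and ADAMTS15 2504.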
